A study of Homo sapiens with 10 samples.

Results

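The 85 genes described here encode the proteins of the cytosolic ribosome, 53 of the large 60S subunit and 32 of the small 40S subunit. They were taken by symbol from the 28380 genes of the count table: RPL or RPS followed by a number, with the endings A, X, L, L1 or AL allowed, and RPLP0, RPLP1, RPLP2 and RPSA. RPE-1 cells, an established line of human retinal pigment epithelial origin, received the vehicle DMSO or 25 µM sulforaphane (SFN), an isothiocyanate of cruciferous vegetables, for 4 h. Each treatment had 5 libraries, and the question was how transcript levels differed after SFN. The study's methods describe replicates of treated cells, but not whether these were started or treated on separate occasions, so p-values measure the spread between these libraries only. All of them come from 1 cell line, and in bulk RNA fewer cells and less RNA per cell cannot be told apart.

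A ribosome holds 1 copy of most of these proteins and several of the acidic stalk proteins RPLP1 and RPLP2, so the genes are transcribed and translated in step in most cells. Their mRNAs belong to the TOP class, which begins at a C followed by an unbroken run of pyrimidines. The kinase mTORC1, which is active in fed cells, promotes translation of TOP mRNAs, and when it is inhibited the protein LARP1 holds the same run at the cap, which blocks translation and stabilizes the mRNA. Counts of mRNA therefore carry no information on how much of it was translated.

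The run is visible at the annotated start of most members. It was searched on the transcribed strand as a C followed by at least 4 bases that are each C or T, within 10 bases of the RefSeq start (GRCh38.p14). Of the 68 members matched in the RefSeq table, 59 held it (86.8%), against 36.4% of all 27305 genes and 40.5% of the 9724 tested genes there. A match describes these letters and is no evidence of a working TOP element. The windows below run 30 bases, from 10 before the start, with the run in capitals. RPS6, RPL11 and RPLP0 stand for the common form. The others are some of the genes in paralog pairs, among them RPL36A, to which the fold changes return.
RPS6 (chr9:19380217-19380246, minus strand): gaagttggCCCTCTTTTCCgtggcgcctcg
RPL11 (chr1:23691796-23691825, plus strand): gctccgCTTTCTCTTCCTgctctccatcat
RPLP0 (chr12:120201092-120201121, minus strand): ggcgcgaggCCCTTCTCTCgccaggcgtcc
RPL39 (chrX:119791611-119791640, minus strand): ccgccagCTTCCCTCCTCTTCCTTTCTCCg
RPL36A (chrX:101391001-101391030, plus strand): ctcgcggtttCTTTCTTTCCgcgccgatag
RPL36AL (chr14:49620607-49620636, minus strand): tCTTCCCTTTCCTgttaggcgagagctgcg
RPL26 (chr17:8383174-8383203, minus strand): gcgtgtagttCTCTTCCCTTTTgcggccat
RPL26L1 (chr5:172958719-172958748, plus strand): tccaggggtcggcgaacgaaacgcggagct
RPL7L1 (chr6:42879606-42879635, plus strand): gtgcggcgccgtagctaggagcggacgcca
RPS27L (chr15:63157458-63157487, minus strand): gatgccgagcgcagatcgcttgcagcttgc
RPL26L1, RPL7L1, RPS27L and RPL10L, paralogs of a core protein, had no such run in this window, nor did RPL17, RPL27, RPL6, RPS29 and RPS4X. The paralogs RPL36AL and RPL22L1 held it.

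Library totals lay between 12375860 and 20666692 counts. Of the 85 members, 83 passed the filter on low counts, among 13378 genes tested. RPL3L, the form of RPL3 known from muscle, had 0 to 2 counts per library, and RPL10L, the testis form of RPL10, had 0 to 5. Rows named as pseudogenes of these genes, 478 in number, held 1.41 to 1.64 counts for every 100 counts of the members. The epithelial keratins KRT8 and KRT18 and all 4 mesenchymal markers reached 10 counts in every library, and so did 3 of 8 markers of retinal pigment epithelium (BEST1, MITF and OTX2), whereas RPE65, RLBP1, RDH5, TYRP1 and PMEL did not. None of 4 blood and none of 3 endothelial markers did, and their summed levels stayed at or below 1.21 and 0.56 CPM, that is, counts relative to library size. HSPA1A, a heat shock gene, ran from 45.4 to 65.3 CPM in DMSO and from 638 to 879 CPM in SFN, so the 5 libraries of each label fell together on this gene.

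DMSO replicate 1 stood apart from the other DMSO libraries in the ribosomal protein genes. The members held 8.70% of its counts, against 3.49%, 3.29%, 3.23% and 3.26% in DMSO replicates 2 to 5. In SFN replicates 1 to 5 they held 4.64%, 6.02%, 4.62%, 4.38% and 3.11%. The 95% Clopper-Pearson interval of each share, which covers counting error only, was at most 0.013 percentage points to either side. The group means were 4.39% ± 2.41 (SD, n = 5) in DMSO and 4.55% ± 1.03 (SD, n = 5) in SFN, a difference below the spread of either group. Without DMSO replicate 1 the DMSO mean was 3.32% ± 0.119 (SD, n = 4), and 4 of 5 SFN libraries lay above every remaining DMSO library while SFN replicate 5 lay below them all. Both subunits moved together, with 1.85 to 1.94 counts in large subunit genes for each count in small subunit genes in all 10 libraries.

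The same order was seen gene by gene. CPM were scaled by the TMM method, which evens out differences in composition between libraries. DMSO replicate 1 was the highest DMSO library for 82 of the 83 tested members, all but RPS10, and the highest of all 10 libraries for 69. Its CPM was 1.26-fold (RPS10) to 6.24-fold (RPLP1) the mean of DMSO replicates 2 to 5, with a median of 3.01-fold, and it was above 2-fold for 67 members. SFN replicate 2 was the highest SFN library for 82 members and SFN replicate 5 the lowest for 82. The median member lay above the mean of DMSO replicates 2 to 5 by 0.62, 1.05, 0.59, 0.51 and 0.02 on the log2 scale in SFN replicates 1 to 5, and by 1.59 in DMSO replicate 1. The median coefficient of variation of a member was 64.2% over 5 DMSO libraries, 8.37% over DMSO replicates 2 to 5 and 26.6% over the 5 SFN libraries.

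**Figure D1:**
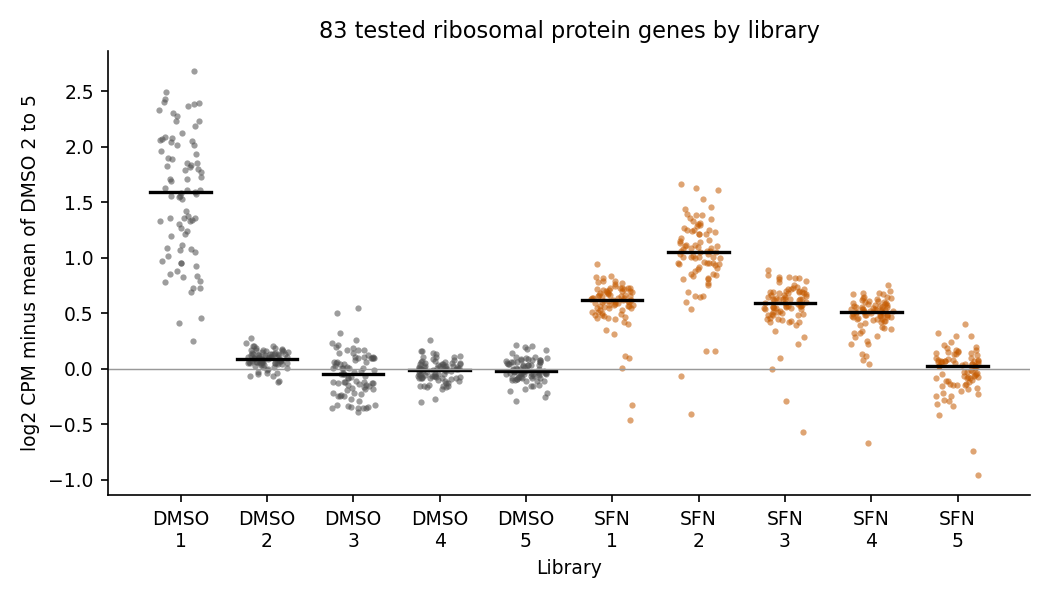
Each point is 1 of the 83 tested ribosomal protein genes, drawn as log2 CPM (with 0.5 added) minus its mean over DMSO replicates 2 to 5 (y axis) in each library (x axis), and black lines are medians. The median of DMSO replicate 1 is 1.59, and SFN replicates 1 to 4 lie between 0.51 and 1.05 while SFN replicate 5 is at 0.02.

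A dependence on gene length moved with these levels. Over genes that are not members, the slope of log2 CPM per doubling of transcript length, relative to the mean of all libraries, was -0.267 in DMSO replicate 1 and 0.086 to 0.146 in the other DMSO libraries. In SFN replicates 1 to 5 the slope was -0.0449, -0.181, -0.0571, -0.0356 and 0.108. The members are short, with a median coding length of 453 bases against 1437 for all tested genes, and 56.6% of them had an annotated transcript under 1000 bases against 9.95% of all tested genes. Compared with other genes of like coding length, the members still stood higher in DMSO replicate 1. At 300 to under 500 coding bases the median deviation of DMSO replicate 1 from DMSO replicates 2 to 5 was 1.69 for 41 members and 0.84 for 661 other genes, and at 800 to under 1300 it was 1.24 for 7 members and 0.16 for 2708 other genes. In SFN replicate 2 the same deviation was 1.05 for members and 0.60 for other genes in the class from 300 to under 500. The part of length or of RNA quality in these levels was not tested beyond the corrections given with the fold changes.

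With all 10 libraries, no ribosomal protein gene was called higher in SFN and 1 was called lower, RPL36A, by the quasi-likelihood test of edgeR with p-values adjusted after Benjamini and Hochberg. Of all 13378 tested genes, 9.07% were called higher and 13.9% lower at the same adjusted p of 0.05. No member had a log2 fold change above 1, where 2.94% of all tested genes were called, and in none did every SFN library lie above every DMSO library, which 8.78% did. At an unadjusted p under 0.05, which 14.6% of all tested genes met higher and 20.0% lower, 1 member was higher, RPL29 (named after its values were seen), and 1 lower, RPL36A. DESeq2 also called 0 higher, whereas limma-voom with sample quality weights, which gives less weight to libraries that vary more, called 77 higher with the same 10 libraries (median log2 fold change 0.54). The share of all tested genes called in the weighted fit is not given here, so the 77 cannot be set against it. The weight that DMSO replicate 1 received was not examined, so that fit is no test apart from leaving this library out. In the edgeR fit the median log2 fold change of the members was 0.08, beside -0.03 for all tested genes, with 53 members above 0 and 30 below. The median standard error of a member was 0.34 on the log2 scale, against 0.19 for all tested genes. In this fit, without weights on libraries, differences of the size of that error could not be detected.

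DMSO replicate 1 was singled out on the levels of these same genes, being the highest DMSO library for 82 of the 83. Leaving it out therefore raises their fold changes and narrows the spread of the controls by construction. Fold changes and p-values without it, here and below, describe the remaining libraries and are no independent test. Without DMSO replicate 1, 73 members were called higher, 43 of 51 in the large and 30 of 32 in the small subunit, and RPL36A was again called lower. The same test then called 22.5% of all tested genes higher and 23.5% lower. Short genes were called higher more often than this: 111 of 222 other genes under 300 coding bases, 342 of 661 from 300 to under 500 and 577 of 1479 from 500 to under 800, where the members' counts were 10 of 11, 33 of 41 and 23 of 24. From 800 to under 1300 bases, 737 of 2708 other genes and all 7 members were called. The median log2 fold change of the members was 0.59, beside 0.00 for all genes, and no call passed a log2 fold change of 1 in either direction, where 4.10% of all genes were called higher and 6.77% lower. The range of levels did not overlap between SFN and DMSO replicates 2 to 5, with SFN higher, for 18 members, against 16.6% of all tested genes. SFN replicate 5 lay within the range of DMSO replicates 2 to 5 for 48 of the 83 members, below it for 17 and above it for 18. Members called in neither direction included RPL7L1, RPL22L1, RPL26, RPL31, RPL36AL, RPL41, RPLP1 and RPS10. Corrected for the slope on coding length in each library, 46 members were called higher and 3 lower (RPL36A, RPL26 and RPL41), with a median of 0.29, where 21.4% and 22.5% of all tested genes were called. The same correction with all 10 libraries gave 0 higher and the same 3 lower, beside 11.2% and 15.4% of all tested genes. Correction by annotated transcript length gave 49 higher and 2 lower without DMSO replicate 1 (23.8% and 23.0% of all tested genes) and 0 higher and 2 lower with it (11.9% and 15.9%).

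**Figure D2:**
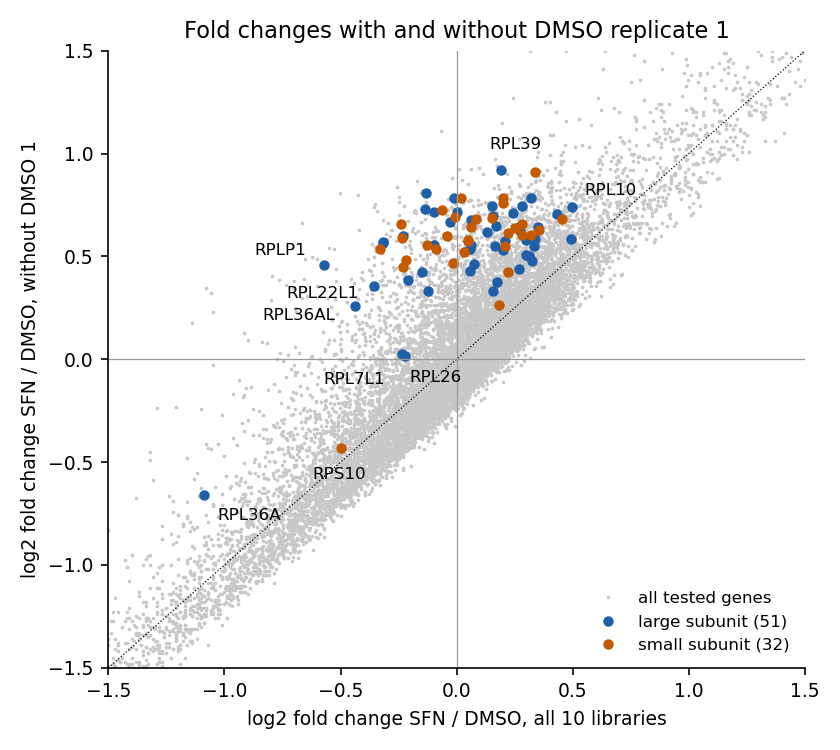
log2 fold change of SFN over DMSO with all 10 libraries (x axis) and without DMSO replicate 1 (y axis), for large subunit genes (blue), small subunit genes (orange) and all tested genes (grey, those within the axes), with a dotted line of equal values. Most ribosomal protein genes lie near 0 on the x axis and near 0.59 on the y axis, and RPL36A lies below 0 on both.

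The 18 members whose SFN libraries all lay above DMSO replicates 2 to 5 are 21.7% of those tested, near the 16.6% of all tested genes, and came from both subunits. They were RPL4, RPL6, RPL7, RPL10, RPL14, RPL15, RPL19, RPL23, RPL32 and RPL39 of the large subunit and RPS2, RPS3A, RPS13, RPS15A, RPS24, RPS27L, RPS28 and RPSA of the small. Among them, RPL14, a protein of the 60S surface, was at 721, 623, 722 and 688 CPM in DMSO replicates 2 to 5 and at 1140, 1430, 1110, 1050 and 907 CPM in SFN, and RPS28, a short protein of the 40S mRNA channel, was at 34.0, 37.3, 31.2 and 37.5 CPM and at 60.3, 109, 65.0, 53.6 and 43.7 CPM. SFN replicate 5 was the lowest SFN library for both. DMSO replicate 1, at 1430 CPM for RPL14 and 123 CPM for RPS28, lay among the SFN libraries for RPL14 and above all of them for RPS28, so neither gene separated the groups with all 10 libraries. Their log2 fold changes were 0.43 ± 0.23 and 0.34 ± 0.39 (SE) with all libraries and 0.71 ± 0.11 (adjusted p = 0.00020 in edgeR) and 0.91 ± 0.20 (adjusted p = 0.0025) without DMSO replicate 1. RPL14 and RPS28 were chosen after their values were seen. Outside this set, RPS12, a 40S protein, was at 1230 CPM in DMSO replicate 1, 208 to 283 CPM in the other controls and 199 to 493 CPM in SFN. Its log2 fold change was 0.54 ± 0.19 (adjusted p = 0.034 in edgeR) without DMSO replicate 1. With the coding length correction added it was 0.17 (adjusted p = 0.33 in edgeR), not past the threshold.

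In the small subunit, RPS6, the substrate of the S6 kinases downstream of mTORC1, was among the members with the most counts. Its level was 4120, 1470, 1320, 1370 and 1320 CPM in DMSO replicates 1 to 5 and 2040, 2330, 1930, 1860 and 1320 CPM in SFN. DMSO replicate 1 was the highest of all, and the SFN libraries lay between it and the other controls apart from SFN replicate 5, which matched them. The log2 fold change was -0.02 ± 0.32 (SE, adjusted p = 0.98 in edgeR) with all libraries and 0.47 ± 0.13 (adjusted p = 0.0087) without DMSO replicate 1. RPS3, which also acts in DNA repair, had a log2 fold change of 0.25 ± 0.31 with all libraries and 0.64 ± 0.18 (SE) without DMSO replicate 1. RPSA, known also as a laminin receptor, had 0.28 ± 0.28 and 0.66 ± 0.14, and its SFN libraries, at 820 to 1510 CPM, all lay above the 654 to 784 CPM of DMSO replicates 2 to 5. RPS27A is made as a fusion with ubiquitin and ranged from 346 to 412 CPM in DMSO replicates 2 to 5, reached 1970 CPM in DMSO replicate 1 and ranged from 348 to 907 CPM in SFN. Its log2 fold change went from -0.24 ± 0.50 to 0.66 ± 0.19 when DMSO replicate 1 was left out. With the coding length correction added it was 0.33 and not past the threshold, and RPS6 was then at 0.29 (adjusted p = 0.022 in edgeR).

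The proteins RPL5 and RPL11 form a complex with 5S rRNA that binds MDM2 and stabilizes p53 when ribosome assembly is disturbed. RPL5 was at 3050, 1120, 939, 1060 and 988 CPM in DMSO replicates 1 to 5 and at 1550, 1850, 1490, 1480 and 1080 CPM in SFN replicates 1 to 5. RPL11 was at 654, 410, 391, 369 and 357 CPM in DMSO and at 549, 763, 535, 501 and 361 CPM in SFN. For both genes SFN replicates 1 to 4 lay above DMSO replicates 2 to 5, and SFN replicate 5 lay within their range. The log2 fold changes were 0.06 ± 0.32 for RPL5 and 0.31 ± 0.21 for RPL11 (SE) with all libraries, neither past the threshold. Without DMSO replicate 1 they were 0.53 ± 0.12 (adjusted p = 0.0030) and 0.50 ± 0.15 (adjusted p = 0.017) by the same edgeR test. With the coding length correction added they were 0.40 (adjusted p = 0.0032) and 0.22 (adjusted p = 0.10), so RPL11 was then not past the threshold.

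RPLP0, RPLP1 and RPLP2 build the stalk on which translation GTPases are activated. RPLP0 was at 3780, 976, 870, 830 and 885 CPM in DMSO and at 1440, 2260, 1450, 1290 and 915 CPM in SFN. RPLP1 was at 2840, 444, 647, 359 and 370 CPM in DMSO and at 618, 886, 684, 619 and 330 CPM in SFN, and RPLP2 showed a like order with 3130 CPM in DMSO replicate 1 and 545 to 661 CPM in the others. With all libraries the log2 fold changes of RPLP0, RPLP1 and RPLP2 were 0.00, -0.57 and -0.14, none past the threshold. When DMSO replicate 1 was left out, RPLP0 (0.72 ± 0.19, adjusted p = 0.0062) and RPLP2 (0.73 ± 0.19, adjusted p = 0.0062) were higher in edgeR, whereas RPLP1 (0.46 ± 0.23, adjusted p = 0.12) was not called. With the coding length correction added, RPLP2 was at 0.32 (adjusted p = 0.035) and RPLP1 at 0.04. A difference in response within the stalk was not tested.

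RPL13A, which can leave the ribosome to silence inflammatory mRNAs, had the most counts of all members. It was at 7710 CPM in DMSO replicate 1, at 1690, 1780, 1530 and 1380 CPM in DMSO replicates 2 to 5 and at 2630, 3550, 2800, 2410 and 1760 CPM in SFN. SFN replicate 5 lay within the range of DMSO replicates 2 to 5 and the other SFN libraries above it. Its log2 fold change was -0.10 ± 0.46 (SE) with all libraries and 0.72 ± 0.16 (adjusted p = 0.0021 in edgeR) without DMSO replicate 1. RPL4, another of the most counted members and a protein that reaches into the exit tunnel, was at 2690 CPM in DMSO replicate 1, 1330 to 1420 CPM in the other controls and 1570 to 2750 CPM in SFN. It rose by 0.59 ± 0.12 without DMSO replicate 1, with SFN above all 4 remaining controls. RPL39, a very short protein of the same tunnel, had a log2 fold change there of 0.92 ± 0.21 (adjusted p = 0.0026), the largest of any member in the uncorrected fit, with 66.7 to 167 CPM in SFN and 42.4 to 62.7 CPM in DMSO replicates 2 to 5. It was at 238 CPM in DMSO replicate 1, and its log2 fold change was 0.30 with the coding length correction and 0.41 with that for transcript length.

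RPL36A was the member called lower with all 10 libraries and again without DMSO replicate 1. It lies on the X chromosome (chrX:101390824-101396155, plus strand, GENCODE 44) and is protein coding, encoding a 60S protein. Its level was 15.7, 6.83, 4.30, 6.26 and 5.09 CPM in DMSO replicates 1 to 5 and 3.87, 4.05, 3.57, 3.31 and 3.11 CPM in SFN. Every SFN library lay below every DMSO library, which held for SFN lower at 11.1% of all tested genes. It fell by 1.09 ± 0.32 on the log2 scale (SE, adjusted p = 0.030 in edgeR) with all libraries, and by 0.66 ± 0.17 (adjusted p = 0.0060) without DMSO replicate 1. With all libraries it was past the limit of 1 on the log2 scale for a differentially expressed gene, which 5.76% of all genes met in that direction, and with TMM scaling and no length correction it was not past that limit without DMSO replicate 1. The call was lost when SFN replicate 1, 3, 4 or 5 was left out, with adjusted p of 0.059, 0.066, 0.067 and 0.064 and values of -1.12 to -1.04. These values rest on 44 to 252 counts per library, and a read-through gene, RPL36A-HNRNPH2, overlaps it and had 0 counts in 9 libraries and 2 in SFN replicate 5. How reads shared between overlapping genes were counted is not given in the sources used here.

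The 8 paralogs among the members were set beside their core partners, since a ratio within a library does not depend on how libraries are scaled. RPL3L and RPL10L had too few counts, and the log2 ratio was compared in the other 6 pairs by a two-sided exact permutation test over libraries, chosen after seeing the data. The smallest p this test can give is 0.0079, and p-values were adjusted over the 6 pairs. Ratios are of counts and are compared only between libraries. They were not corrected for transcript length, and the slope on length differed between libraries, so the ratio of a pair of unlike length can shift with it. Reads that map equally well to both genes of a pair or to a pseudogene could move them, and how such reads were counted is not given in the sources used here.

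RPL7L1, a paralog of RPL7 known from ribosome assembly, lost ground to RPL7. There were 0.622, 0.541, 0.623, 0.605 and 0.552 counts of RPL7L1 for each count of RPL7 in DMSO replicates 1 to 5 and 0.377, 0.359, 0.442, 0.437 and 0.483 in SFN. The groups did not overlap, and DMSO replicate 1 fell among the other controls. The means were 0.588 ± 0.0391 and 0.419 ± 0.0511 (SD, n = 5), and the log2 ratio fell by 0.50 (exact permutation p = 0.0079, adjusted p = 0.032). RPL7L1 alone was at 240 to 268 CPM in DMSO replicates 2 to 5, at 228 to 277 CPM in SFN and at 481 CPM in DMSO replicate 1. With DMSO replicate 1 left out, RPL7 rose by 0.51 ± 0.12 on the log2 scale while RPL7L1 had a log2 fold change of 0.02 ± 0.08 (adjusted p = 0.87 in edgeR). The annotated transcripts differ in length, with 1233 bases for RPL7 and 4499 for RPL7L1, while the coding lengths are 744 and 765. With the transcript length correction added, RPL7 was at 0.30 and RPL7L1 at 0.12, a smaller gap. With the coding length correction instead they were at 0.33 and -0.15. The ratio without DMSO replicate 1 fell by 0.47 (exact permutation p = 0.016), and its adjusted p stayed between 0.032 and 0.048 with each library left out.

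The ratio of RPL36AL to RPL36A moved the other way. RPL36AL is a retrocopy that encodes a protein nearly identical to RPL36A, and it had 75.1, 45.9, 63.5, 47.3 and 50.0 counts for each count of RPL36A in DMSO and 96.7, 110.0, 96.9, 94.3 and 74.6 in SFN. Only SFN replicate 5 fell below the highest DMSO library, DMSO replicate 1. The log2 ratio rose by 0.76 (exact permutation p = 0.016, adjusted p = 0.032) with all libraries and by 0.87 (exact permutation p = 0.0079) without DMSO replicate 1. Leaving out SFN replicate 1, 2, 3 or 4 raised the adjusted p to 0.071. RPL36AL itself had a log2 fold change of -0.44 ± 0.41 with all libraries and 0.26 ± 0.15 without DMSO replicate 1 (SE), neither past the threshold.

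RPL26L1 also gained on RPL26, the protein that sits at the exit of the tunnel. The ratio was 3.51, 3.05, 2.17, 2.66 and 3.38 in DMSO and 3.86, 4.79, 4.01, 3.61 and 3.42 in SFN, and the groups overlapped through SFN replicate 5 and DMSO replicate 1. The log2 ratio rose by 0.43 (exact permutation p = 0.016, adjusted p = 0.032) with all libraries and by 0.50 (exact permutation p = 0.0079) without DMSO replicate 1. The adjusted p was above the threshold, at 0.063 to 0.095, when DMSO replicate 3 or SFN replicate 1, 2, 3 or 4 was left out. RPL26 was at 18.7 to 27.1 CPM in DMSO replicates 2 to 5 and at 19.8 to 25.9 CPM in SFN, and had a log2 fold change of 0.03 ± 0.12 without DMSO replicate 1, while RPL26L1 rose by 0.55 ± 0.14 (adjusted p = 0.0051 in edgeR), or by 0.23 with the coding length correction added.

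**Figure D3:**
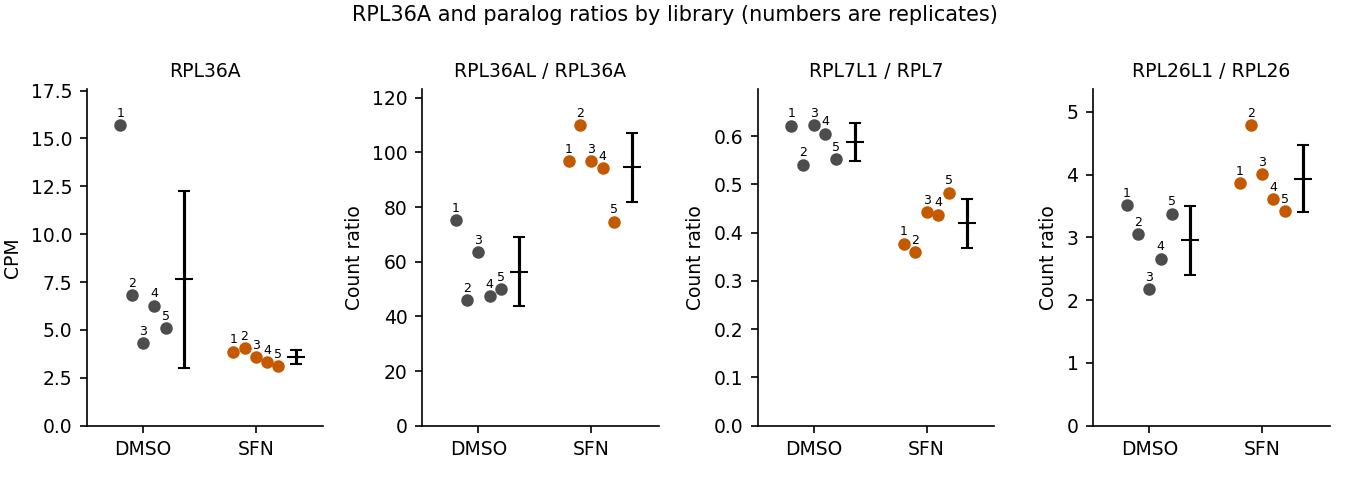
Level of RPL36A in CPM (left) and ratio of counts of RPL36AL to RPL36A, RPL7L1 to RPL7 and RPL26L1 to RPL26 (y axes), with 1 numbered point per library and the mean ± SD (n = 5) of each group in black. The groups do not overlap for RPL36A or for RPL7L1 to RPL7.

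In the remaining pairs no difference was detected. The ratio of RPL22L1 to RPL22, 2 RNA-binding proteins that also act on splicing, was 7.79 in DMSO replicate 1, 2.67 to 3.55 in the other controls and 2.26 to 3.56 in SFN (exact permutation p = 0.48, with a log2 change of -0.28). RPL39L to RPL39 had a log2 change of -0.15 (exact permutation p = 0.48) and of -0.31 without DMSO replicate 1 (exact permutation p = 0.056). RPS27L, a p53 target, to RPS27 had a log2 change of 0.04 (exact permutation p = 0.87). RPL3 and RPL10, whose paralogs were nearly silent, rose by 0.44 ± 0.12 and 0.74 ± 0.19 without DMSO replicate 1 and had log2 fold changes of 0.27 ± 0.19 and 0.50 ± 0.26 with all libraries, not past the threshold.

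To see which members departed from the rest, libraries were also scaled to the ribosomal protein genes themselves, which moved the median of all tested genes to -0.32 with all libraries and to -0.52 without DMSO replicate 1. With all libraries RPL36A alone was called, at -1.18 ± 0.22, where 6.32% of all tested genes were called lower and 1.47% higher. After DMSO replicate 1 was left out, 4 members were called lower relative to the others and none higher, beside 40.8% and 2.87% of all tested genes. They were RPL36A (-1.20 ± 0.20), RPS10 (-1.01 ± 0.34), RPL26 (-0.52 ± 0.18) and RPL7L1 (-0.52 ± 0.17). RPS10, named after its values were seen, rests on only 4 to 22 counts per library. A read-through gene named for it, RPS10-NUDT3, had 0 to 5 counts per library. How reads shared between such genes were counted is not given, so the low level of RPS10 may not be that of its mRNA.

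Among members with the run of pyrimidines at the start, 51 of 59 were called higher without DMSO replicate 1, with a median log2 fold change of 0.60, and among the 8 tested members matched without it 7 were, with a median of 0.54. The deviation of DMSO replicate 1 had a median of 1.73 in the first set and 1.15 in the second on the log2 scale. A difference between these sets was not tested.

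Other genes of the translation machinery were grouped in hand-written lists, beside the same 9.07% and 13.9% of all tested genes called with all libraries. FAU, which encodes RPS30 as a fusion, and the 40S factor RACK1 were called in neither direction with all 10 libraries, and both were called higher without DMSO replicate 1. FAU was at 808 CPM in DMSO replicate 1, 125 to 212 CPM in the other controls and 137 to 300 CPM in SFN. Of 20 listed TOP mRNAs that encode no ribosomal protein, 19 were tested (all but EEF1G), and 1 was higher and none lower, the translationally controlled protein TPT1 (0.60 ± 0.20, adjusted p = 0.046 in edgeR). Without DMSO replicate 1, 9 were higher and 2 lower, beside 22.5% and 23.5% of all tested genes, and the median log2 fold change was 0.24. Elongation factor EEF2, by contrast with the members, was lowest in DMSO replicate 1, at 872 CPM against 1500 to 1620 CPM in the other controls, and it ran from 1700 to 1880 CPM in SFN. DMSO replicate 1 was the highest DMSO library for 14 of these 19 genes.

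Of 14 regulators of TOP mRNAs, the poly(A)-binding LARP4 was higher (0.58 ± 0.19, adjusted p = 0.05 after rounding in edgeR) and none was lower. LARP4 in SFN replicate 2, at 125 CPM, lay within the 78.3 to 145 CPM of DMSO. Without DMSO replicate 1, 6 regulators were higher and 3 lower, beside 22.5% and 23.5% of all tested genes. Of 11 dedicated chaperones and importers, TSR2, the carrier of RPS26, was higher (0.27 ± 0.09, adjusted p = 0.048 in edgeR). HEATR3, which imports RPL5, fell by 0.69 ± 0.10 (adjusted p = 0.00030 in edgeR). It was at 36.5, 35.4, 41.4, 36.3 and 40.1 CPM in DMSO and at 24.9, 22.4, 22.4, 24.6 and 23.4 CPM in SFN, without overlap and with DMSO replicate 1 among the other controls. GRWD1, the chaperone of RPL3, fell by 0.41 ± 0.14 (adjusted p = 0.049 in edgeR), and DMSO replicate 1, at 52.4 CPM, lay within the 45.6 to 55.1 CPM of SFN. PDCD2L, an adaptor of 40S export, fell by 1.16 ± 0.37, and by 0.70 ± 0.21 without DMSO replicate 1. It was at 16.8 CPM in DMSO replicate 1, 4.32 to 6.45 CPM in the other controls and 2.26 to 4.92 CPM in SFN, so the groups overlapped. Of 12 factors that act on stalled or collided ribosomes, the ubiquitin ligase RNF10 was higher (0.39 ± 0.12). ANKZF1, which releases stalled peptides, fell by 0.75 ± 0.12, and ZNF598, which marks collided ribosomes, by 0.35 ± 0.10. The counts without DMSO replicate 1 were 3 higher and 4 lower for chaperones and 4 higher and 3 lower for these factors. The same 22.5% and 23.5% of all tested genes stand beside them.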

How the data were processed

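RNA of 10 RPE-1 libraries was sequenced. The authors deposited raw counts per Ensembl gene, unnormalized, with replicates separate. The submitters' processing notes name FastQC, STAR, featureCounts, edgeR and hg38/GRCh38, while the study's methods name Lexogen QuantSeq, a kit that reads 3′ ends, and the Bluebee pipeline. Handling of strand, shared reads and molecular identifiers is not given in the sources used here.

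Genes were filtered (filterByExpr), scaled by TMM and compared by the quasi-likelihood test of edgeR 4.0.16 (Benjamini-Hochberg adjusted, R 4.3.3) over 13378 genes, 13566 without DMSO replicate 1. Alternatives used limma 3.58.1 and DESeq2 1.42.0. GENCODE 44 held 28145 of 28380 identifiers. Replicate pairs differed by more than sampling noise (chi-square per degree of freedom 3.5 to 243).

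The members and lists were chosen with earlier results of these data known. Members named with values are those past the threshold with all libraries, the paralogs and partners, members with roles outside the ribosome, the stalk, the 3 with most counts and those failing the filter, and, of a list, members past the threshold. RPS10, RPS12, RPS28, RPL14, RPL29, RPL31, RPL41, EEF2 and the members listed for not overlapping were named after their values were seen. Some items are not reported here.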

Additional observations from a re-analysis of the deposited data

Results flagged for a closer look

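Single libraries that lay far from the rest of their group were found by the gap of the highest or lowest of 5 libraries to its neighbour, divided by the range of the group, above 0.71. This was examined in 60 groups (the share, the median, the length slope and each named gene, in DMSO and in SFN) and met in 28, where chance gives about 3. In 27 of them the library was DMSO replicate 1. The values were 0.95 for the share of counts in ribosomal protein genes, 0.87 for their median log2 CPM and 0.85 for the slope on transcript length. Among the stalk and the most counted members they were 0.95 for RPLP0, 0.88 for RPLP1, 0.96 for RPLP2, 0.94 for RPL13A, 0.93 for RPL4 and 0.95 for RPS6. Among members with other roles they were 0.92 for RPL5, 0.82 for RPL11, 0.96 for RPS27A, 0.93 for RPS3 and 0.89 for RPSA. Among core partners they were 0.83 for RPL3, 0.89 for RPL7, 0.85 for RPL10, 0.75 for RPL22, 0.78 for RPL36A, 0.90 for RPL39 and 0.87 for RPS27. Among paralogs they were 0.88 for RPL7L1, 0.94 for RPL22L1, 0.88 for RPL26L1, 0.94 for RPL36AL, 0.85 for RPL39L and 0.72 for RPS27L. The other was RPL10 in SFN replicate 2, at 0.72. These genes share their libraries, so the values are not independent, and the cause of the distance of DMSO replicate 1 was not tested.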

How the results depend on the processing

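With all 10 libraries no member was called higher. The alternatives set out at the start also gave 0, except sample quality weights in limma-voom and leaving out DMSO replicate 1. These gave 77 (share of all tested genes not given here) and 73 (beside 22.5% of all tested genes). The range was 0 to 73 when 1 replicate was left out. The count called lower was 1, and it was 0 with quantile normalized limma-voom and 2 with the transcript length correction (RPL36A and RPL26), for a range of 0 to 1 when 1 replicate was left out. Members past a log2 fold change of -1 numbered 1, and 0 with quantile normalized limma-voom, quality weights or the replicate block, for a range of 0 to 1. The median log2 fold change ran from -0.04 to 0.59 when 1 replicate was left out, and the difference in share (SFN minus DMSO, 0.159 percentage points) from -0.207 to 1.24.

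The replicate numbers share no label of origin and their deviations correlated at 0.0394, -0.267, -0.0605, 0.0308 and 0.484, so the replicate block only shares a number. With it 0 members were higher and 1 lower, RPL36A at -0.95, and with the length correction added RPL36A was at -1.11.

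With sample quality weights the sign turned for RPL13A (0.71), RPL22L1 (0.39), RPLP1 (0.58), RPLP2 (0.69), RPS27A (0.57) and RPS6 (0.46). Alternatives chosen after seeing the data left out DMSO replicate 1 together with another change. They gave 73 higher by DESeq2, 46 with quantile normalization (0 lower), 58 with library size only, 49 with transcript length (2 lower) and 46 with coding length (3 lower), and a further library left out gave 62 (DMSO replicate 5) to 78 (SFN replicate 5). Members past -1 numbered 0 in the first 4 of these and with any further library left out, and 2 when scaled to the members, where 4 were lower. Members called above a log2 fold change of 1 numbered 2 when SFN replicate 5 was left out along with DMSO replicate 1. Coding length with all libraries gave 3 lower. Shares of all tested genes called are not given here for DESeq2, quantile normalization, library size only or a further library left out. The member counts of those fits therefore have no baseline. In the same order of the 5 changes, RPL13A turned to 0.74, 0.46, 0.58, 0.47 and 0.47 and RPLP2 to 0.75, 0.46, 0.59, 0.26 and 0.32. RPS6 turned to 0.49, 0.33, 0.28 and 0.29 in all but quantile normalization, and RPS27A to 0.68, 0.52 and 0.31 with DESeq2, library size and transcript length.

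Over fits with 1 library left out, or DMSO replicate 1 and 1 more, the log2 fold change ran from -0.27 to 0.84 for RPL13A, -0.31 to 0.89 for RPLP2, -0.44 to 0.80 for RPS27A, -0.13 to 0.58 for RPS6, -0.78 to 0.68 for RPLP1, -0.50 to 0.50 for RPL22L1 and -0.59 to 0.38 for RPL36AL. In these fits each value past the threshold above 0 was reached only with DMSO replicate 1 left out. Sample quality weights called 77 members higher with all 10 libraries, with a median log2 fold change of 0.54, beside 0.59 when DMSO replicate 1 was left out. That fit gives less weight to libraries that vary more, and the weight of DMSO replicate 1 was not examined. Its calls are therefore no support apart from leaving that library out. In 105 other cases a named member changed sign with neither value past the threshold. The cause was not tested. RPL36A was past the threshold in 31 of 37 alternatives (adjusted p 8.1e-05 to 0.14), and with each library left out the ratios of RPL7L1, RPL26L1 and RPL36AL to their partners kept their direction and stayed past the threshold, with p adjusted over the 6 pairs, in 10, 5 and 6 of 10 cases. The values of RPS10 and RPL36A rest on few counts, and how reads shared with their read-through genes were counted is not given.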
